A study of Arabidopsis thaliana with 12 samples.

Results

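Roots of the hni9 mutant held at high nitrogen were compared with roots of wild-type (WT) Arabidopsis thaliana held at low nitrogen. The arrays were chosen by the genotype and supply in their titles, 3 for each of these groups, which makes 6 of the 12 arrays of the study. The study crossed 2 genotypes with 2 nitrogen supplies and measured root RNA on Affymetrix arrays, with 3 biological replicates in each of 4 groups. High nitrogen was a steady supply of 10 mM NH4NO3 and low nitrogen a steady supply of 0.3 mM KNO3. Both groups of this comparison therefore differ in genotype, in the amount of nitrogen and in the salt, and effects of these cannot be told apart within it. The remaining 6 arrays, hni9 at low nitrogen and WT at high nitrogen, were used to choose genes by a difference in which the 6 compared here have no part, although 1 estimate of the spread was shared by all 12. No agent or second mutation is named in the labels. The titles write the mutant as hni9-1, hni9-2 and hni9 for replicates 1, 2 and 3, and the labels leave unsaid whether that number is an allele or a replicate. Differences between alleles may thus be part of the spread among the mutant arrays.

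HNI9, also called IWS1, is a factor that travels with RNA polymerase II during transcript elongation. In Arabidopsis roots it is known for the repression of the nitrate transporter gene NRT2.1 when nitrogen is plentiful, and mutants were isolated because that repression fails. Nitrogen-limited roots are known to raise nitrate uptake, to recycle nitrogen from purines and to change carbon use. The question of this comparison is where the mutant, although fed with nitrogen, stands at the level of a nitrogen-limited wild type and where it does not. HNI9 and NRT2.1 themselves were not analysed here.

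Values are probe set intensities on a linear scale that the authors had scaled to a common trimmed mean of 500, so they have no unit of molecules and are not compared between genes. Median intensities of the arrays lay between 199.8 and 221.7 and each array had 10.8% to 15% of its values under 16. Changes are log2(intensity + 16) in hni9 at high nitrogen minus WT at low nitrogen, ± the standard error (SE) of limma, with n = 3 arrays a group, and adjusted p-values come from limma with Benjamini-Hochberg adjustment over 22746 probe sets. A probe set was called where that adjusted p was under 0.05. On the log2 scale the replicates had a median standard deviation of 0.224 in the mutant and 0.205 in WT. GAPDH control probe sets gave 3′ to 5′ ratios of 1.027 to 1.248 in the mutant and 0.921 to 1.188 in WT, ranges that overlap, while the WT arrays at high nitrogen had 1.306 to 1.346. Of 14 root marker genes 4 were measured under a name, and PYK10, a beta-glucosidase abundant in roots, gave mean intensities of 22187 in the mutant and 21565 in WT, a change of 0.04 (adjusted p = 0.92). The 4 were not uniform, as 1 was called higher, EXPA7 at 0.77, and 1 lower, AT5G17820 at -0.87.

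The nitrogen-fed mutant did not sit close to the nitrogen-limited wild type over the transcriptome as a whole. Of 22746 probe sets 2273 (9.99%) were called, 1011 (4.44%) higher and 1262 (5.55%) lower in the mutant. At least a 2-fold change was found for 722 (3.17%), 256 (1.13%) higher and 466 (2.05%) lower. In 27.9% of all probe sets the 3 arrays of one group lay wholly above those of the other. This was the largest number of calls among the 6 pairs of groups in the same fit, ahead of 1973 between hni9 at low and WT at high nitrogen and 1744 (7.67%) between the genotypes at high nitrogen. The mean squared log2 difference, less the noise between replicates, was 0.138 here, 0.137 for hni9 at low against WT at high nitrogen and 0.0452 between the genotypes at low nitrogen. On the other side, 15066 probe sets (66.2%) were not called and had a 90% interval of the change inside 2-fold. The median change of all probe sets was 0.06. The count of 2273 fell to 1490 when WT replicate 2 at low nitrogen was left out and to 1063 with replicates 1 and 2 alone. In RNA from whole roots, fewer cells of a type and less RNA per cell cannot be told apart, which holds for every change below.

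The largest rises in the mutant included genes of organic acid handling, auxin conjugation, defence and ethylene synthesis. AT4G00910, a member of the family of aluminium-activated malate transporters, had intensities of 290.1, 437 and 223 in the mutant and of 15.3, 32.0 and 12.1 in WT. The change was 3.21 ± 0.40 (adjusted p = 0.000108). At high nitrogen the WT arrays read 233, 234 and 192.5, so the mutant arrays overlapped the nitrogen-fed wild type and lay far from the nitrogen-limited one. ICL (AT3G21720), the isocitrate lyase of the glyoxylate cycle, read 880.3, 1022 and 726.5 in the mutant against 56.0, 119 and 105 in WT, a change of 3.07 ± 0.35 (adjusted p = 6.1e-05). Unlike AT4G00910, ICL was also low in WT at high nitrogen, at 146 to 176, and all 3 mutant arrays at high nitrogen lay above every WT array of either supply. The auxin-conjugating enzyme gene GH3.3 (AT2G23170) read 1746, 505 and 1803 against 148, 150.0 and 132, a change of 2.90 ± 0.38 (adjusted p = 0.000169). Replicate 2 of the mutant was the low one and still lay above all WT arrays, and without it the change was 3.49.

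PDF2.1 (AT2G02120), which encodes a defensin, a small secreted antimicrobial peptide, had 5264, 2632 and 4516 in the mutant and 648, 655 and 456 in WT. That is a change of 2.75 ± 0.23 (adjusted p = 3.5e-06) with no overlap. The ACC oxidase gene AT1G12010, for the last step of ethylene synthesis, read 839.5, 1214 and 875 against 172, 194 and 172.0, a change of 2.33 ± 0.18 (adjusted p = 2e-06). The most certain rise among the 14 genes named for size was that of AT5G44400, a berberine bridge enzyme-like oxidase gene, at 1.90 ± 0.11 (adjusted p = 8.9e-08). Its mutant arrays lay at 2266, 1910 and 2543 and its WT arrays at 611, 596.5 and 548, while WT at high nitrogen had 2251.5 to 2549.6. AT1G49570, a class III peroxidase gene of the secretory route, read 1210, 1740 and 1597 against 408, 446 and 367, a change of 1.84 ± 0.15 (adjusted p = 3.1e-06). As for ICL, and unlike AT5G44400, WT at high nitrogen was low, at 348 to 418, so the mutant stood above both supplies of WT.

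Other genes on that side were AT2G29500, a small heat shock protein gene, at 2.20 ± 0.25, AT3G59480, a fructokinase-like gene, at 2.29 ± 0.28, and AT2G37870, of the lipid transfer protein family, at 2.10 ± 0.25. AT5G22580, AT5G52390, AT2G34930 and AT5G52790 rose by 2.22, 2.03, 1.93 and 1.89. In all 14 genes the 3 mutant arrays lay above the 3 WT arrays, as the rule for naming them required.

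The largest falls included genes of secondary metabolism, phospholipid synthesis, the cell wall and transport. TPS-CIN, a cineole synthase that makes a volatile terpene, read 60.8, 61.2 and 3.9 in the mutant and 771, 819 and 729.6 in WT, a change of -4.01 ± 0.39 (adjusted p = 1.2e-05). Replicate 3 was the lowest mutant array, and without it the change was -3.36. The acyltransferase gene AT1G78990 read 4.2, 4.3 and 31.5 against 324, 399 and 396, a change of -3.85 ± 0.30 (adjusted p = 1.9e-06) that was -2.51 with 64 added in place of 16. In both genes WT at high nitrogen stood with WT at low nitrogen, at 692 to 1126 for TPS-CIN and 337 to 425 for AT1G78990.

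AT1G73600, a phosphoethanolamine methyltransferase of phosphocholine synthesis, had the lowest p of the named genes. Its intensities were 392, 282 and 375 in the mutant and 4297, 3898 and 3764 in WT, a change of -3.46 ± 0.11 (adjusted p = 3.7e-10). WT at high nitrogen lay between, at 1122 to 1256.5, so that the nitrogen-fed mutant was lower than the wild type at either supply. The protein phosphatase 2C gene AT4G32950 read 163, 174 and 142 against 2158, 2168 and 2404, a change of -3.69 ± 0.23 (adjusted p = 1.8e-07). In that gene WT at high nitrogen read 69.0 to 142.3 and hni9 at low nitrogen 1626 to 3147, so its arrays divided by supply and not by genotype.

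Further falls were -3.31 ± 0.29 for scpl31 (AT1G11080), a serine carboxypeptidase-like gene, and -3.28 ± 0.38 for the polygalacturonase gene AT1G65570. The methyltransferase gene AT5G37990 had -2.85 ± 0.24, the receptor-like kinase gene AT5G59700 -2.67 ± 0.35, and AT3G45710, of the nitrate and peptide transporter family, -2.52 ± 0.34. AT5G37990 read 551.5, 316.5 and 645 in the mutant and 3358 to 3770 in WT at low nitrogen, beside 3628 to 3807.5 in WT at high nitrogen. Other members of this group were AT5G22390, AT3G01260 and AT3G18560 at -3.38, -2.61 and -2.45, the efflux carrier gene AT5G52050 at -2.56, and AT2G41730 at -2.51. AT5G52050 was dim and its value depended on the number added, with -1.67 for 64, and with replicates 1 and 2 alone it had an adjusted p of 0.051. The probe set of AT2G41730 has the x suffix, so its probes may also catch RNA of other genes. The plot of the 28 named genes over all 12 arrays sets these levels beside those of WT at high and hni9 at low nitrogen.

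**Figure D1:**
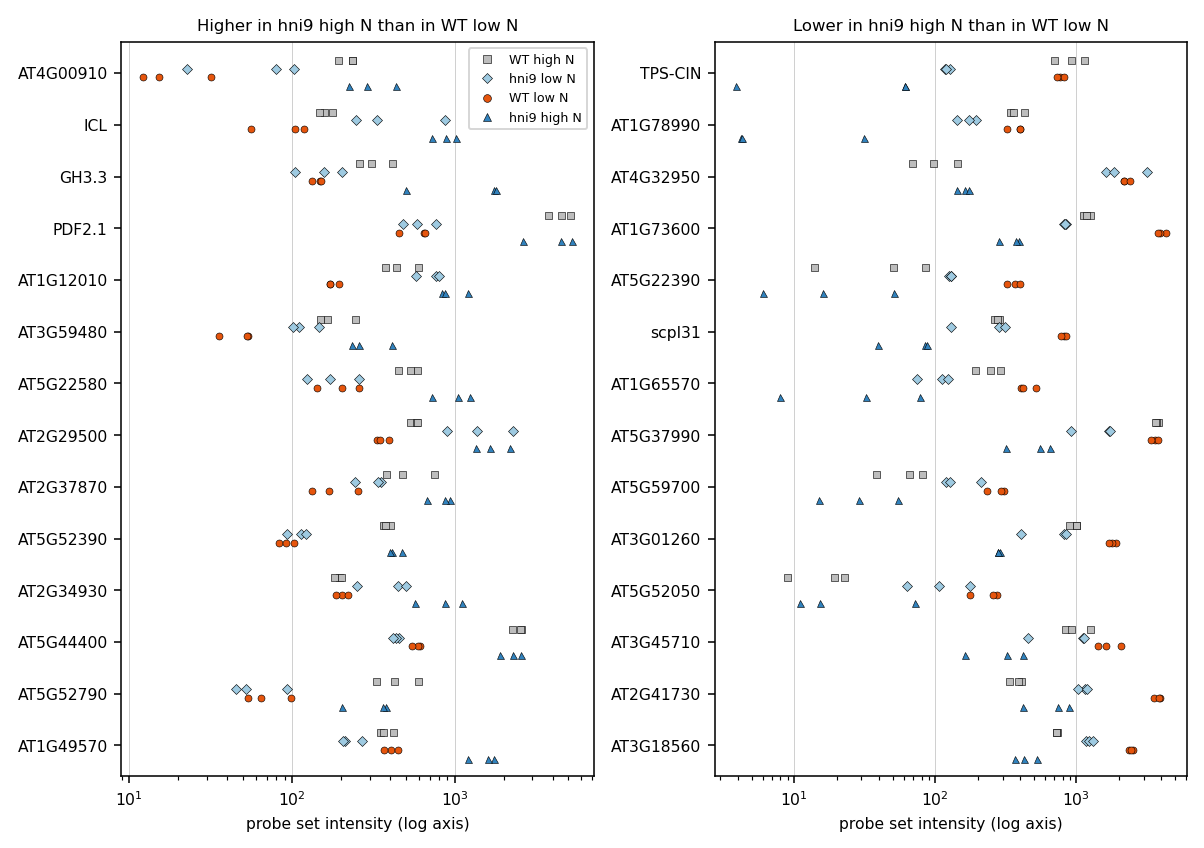
Probe set intensity (log axis) of the 14 genes with the largest rise (left) and the 14 with the largest fall (right) in hni9 at high against WT at low nitrogen, with 1 point per array and 4 groups by colour and shape. The dark blue triangles (hni9 at high nitrogen) and the orange circles (WT at low nitrogen) do not overlap in any row, as the rule for naming these genes required. For AT4G00910 or AT5G44400 the triangles lie with the grey squares of WT at high nitrogen, while for ICL or AT1G49570 they lie above all WT points.

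The nitrogen-responsive genes of the wild type were followed in the fed mutant. Between the supplies 1305 probe sets (5.74%) were called in WT, and the 10 genes with the largest rise and the 10 with the largest fall at low nitrogen were taken. Since these were chosen on the WT arrays at low nitrogen, that choice by itself places those arrays apart from WT at high nitrogen, and the levels below are a description. The same arrays are the reference for the mutant here. The choice therefore also favours a lower mutant among genes raised in WT and a higher one among genes lowered in WT. All 10 genes that WT raised at low nitrogen were lower in the fed mutant than in nitrogen-limited WT, with changes from -1.73 to -3.69, and none reached the WT level. AT2G21640, a marker of oxidative stress, read 468, 209 and 716 in the mutant, 1951, 2377 and 2096 in nitrogen-limited WT and 133 to 294 in nitrogen-fed WT. For the efflux carrier gene AT2G04050 these were 145, 91.1 and 262, then 566, 665 and 706, then 60.4 to 84.9. In both genes the mutant arrays lay below the limited WT, and for AT2G04050 wholly above the fed WT.

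AT5G40590 read 309, 492 and 325 in the mutant against 1106 to 1338.5 in limited WT and 122 to 181 in fed WT, with no overlap between any of these groups. The aspartyl protease gene AT5G48430 read 237, 437 and 225 against 1533 to 1695 and 201 to 252, so the mutant arrays overlapped the fed wild type. NDB4, one of the alternative NAD(P)H dehydrogenases in the inner membrane of mitochondria, read 60.3, 5.0 and 142.5 against 258.5 to 401 in limited WT. Its change of -2.41 ± 0.56 (adjusted p = 0.0126) was no longer called without WT replicate 2 at low nitrogen (0.0587). AT2G41810, at -2.04 ± 0.51 (adjusted p = 0.019), lost its call without mutant replicate 1 (0.051) or 3 (0.0671) or WT replicate 3 (0.0784).

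The genes that fell at low nitrogen in WT were less uniform in the mutant. AT1G64370 was at the limited WT level, with 321, 457.5 and 435 in the mutant and 466, 349 and 293 in limited WT, although fed WT read 2655 to 2856. AT2G16005 was low in both as well, at 89.9, 78.5 and 179.8 in the mutant and 152, 209 and 238 in limited WT against 1596 to 1868 in fed WT. Its change of -0.76 ± 0.26 had an adjusted p of 0.082, but was called at -1.09 (adjusted p = 0.00846) without mutant replicate 3, and at the same -0.76 when the dimmest 40% were dropped (0.04). UGT84A1, a glucosyltransferase that acts on hydroxycinnamates, was dim in both, with a change of -0.79 ± 0.53 (adjusted p = 0.41) that was -0.36 without WT replicate 1 and -1.28 without WT replicate 3.

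In contrast, the mutant arrays overlapped those of fed WT for PDF2.1, AT4G00910 and AT5G52790. The lectin gene AT3G16530 lay between, with 1188, 990.0 and 1124 in the mutant, 362 to 472 in limited WT and 1661 to 2305 in fed WT, and none of these ranges overlapped. Its change was 1.41 ± 0.16 (adjusted p = 4.3e-05). AT1G19960 was also intermediate, at 197.5 to 272.5 against 80.5 to 109.7 and 701 to 937, with a change of 1.29 ± 0.21 (adjusted p = 0.0012). AT2G23910 read 436, 140.3 and 379 in the mutant against 115 to 165 in limited WT, and the change of 0.97 ± 0.30 (adjusted p = 0.057) was 1.44 (adjusted p = 0.000178) without mutant replicate 2, which was the low one. It was also called with the dimmest 40% left out (0.0269) and with 1 added in place of 16 (0.0475). AT2G22590 had 1.66 ± 0.47 (adjusted p = 0.035), a call lost without mutant replicate 1 or 3 (0.144 and 0.101) or WT replicate 1 or 3 (0.121 and 0.138). With all arrays kept, that call was also lost with 64 added (0.93, adjusted p = 0.0526), with quantile normalization (0.0522), without the intensity trend (0.0692) and with only these groups fitted (0.0973).

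**Figure D2:**
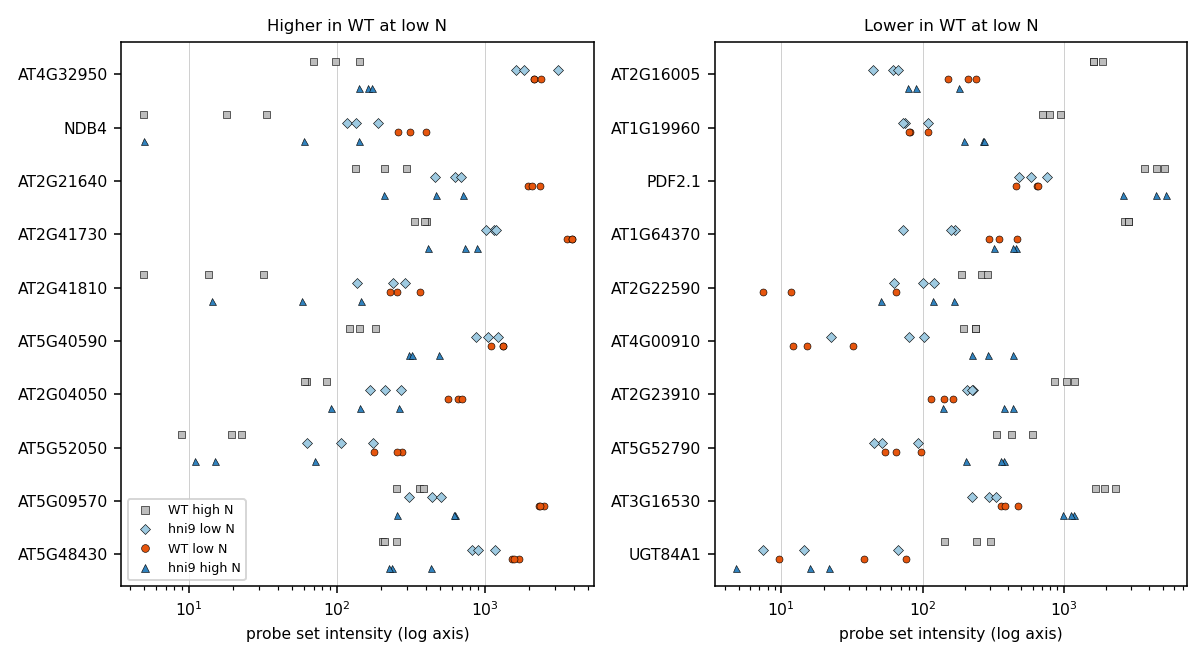
Probe set intensity (log axis) on each of the 12 arrays for the 10 genes most raised (left) and the 10 most lowered (right) at low nitrogen in WT, with the 4 groups by colour and shape. On the left every dark blue triangle (hni9 at high nitrogen) lies below the orange circles (WT at low nitrogen), while on the right the triangles lie with the circles for AT1G64370, with the grey squares (WT at high nitrogen) for PDF2.1 and between them for AT3G16530.

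To ask the same question with genes chosen on other arrays, probe sets were taken from hni9 at low against WT at high nitrogen, a difference that uses no array of the comparison here. There 1973 of 22746 probe sets (8.67%) were called, 911 (4.01%) higher and 1062 (4.67%) lower, a split that became 1447 and 818 when each array was centred on its median. Of these, 633 (2.78%) changed at least 2-fold, 177 (0.778%) higher and 456 (2%) lower in hni9 at low nitrogen. The count of 1973 was 1266 without WT replicate 2 and 1246 without WT replicate 3 at high nitrogen. Each of the 633 was then placed by its change between hni9 at high and WT at low nitrogen. By the arithmetic of the design, a difference due to supply alone turns its sign between these comparisons, one due to genotype alone keeps it, and equal differences for both cancel here.

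Of the 633 probe sets 233 (36.8%) were not called here and had a 90% interval inside 2-fold, beside 66.2% of all probe sets. For these the fed mutant and the limited wild type lay within 2-fold of each other, which leaves room for smaller differences. Another 168 (26.5%) were called in the opposite direction, 78 (12.3%) in the same direction, and 154 (24.3%) were undecided. The called ones together were 246, or 38.9%, beside 9.99% of all probe sets. With each pair of groups fitted alone, and so with no shared spread, 190 were within 2-fold, 153 opposite, 73 in the same direction and 182 undecided. Of the 177 that were higher in hni9 at low nitrogen, 48% went the opposite way here and 24.3% stayed within 2-fold, while of the 456 that were lower 18.2% went the opposite way and 41.7% stayed within 2-fold. After centring each array on its median the probe sets within 2-fold were 66 from the higher and 149 from the lower side, in place of 43 and 190, and the opposite ones 99 and 64, in place of 85 and 83. Across all probe sets the changes in the 2 comparisons had a Pearson correlation of -0.0745 and a Spearman correlation of -0.0209, which describe probe sets within these arrays and not independent replicates.

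**Figure D3:**
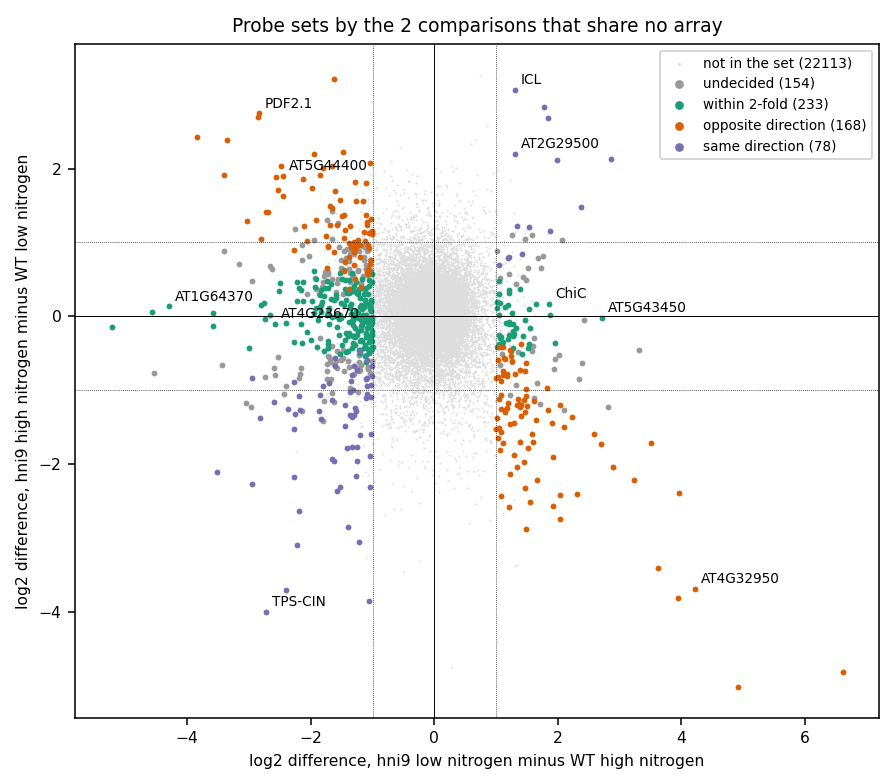
Each point is 1 of the 22746 probe sets, with the log2 difference between hni9 at low and WT at high nitrogen on the x axis and that between hni9 at high and WT at low nitrogen on the y axis, and dotted lines at 2-fold. The 633 probe sets chosen on the x axis are coloured by class, of which the 233 within 2-fold form a band along the middle and the 168 of opposite direction fill the upper left and lower right.

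Medians of the classes show how the separate contrasts were arranged, with the caution that these contrasts share arrays with each other. The classes were sorted by the difference between the fed mutant and limited WT. Like medians of these groups within 2-fold, and unlike ones in the called classes, therefore follow from the sorting and are a description. In the 190 probe sets of the lower side within 2-fold, the median difference from fed WT was -0.77 for the fed mutant and -0.76 for the limited WT, and -1.32 for hni9 at low nitrogen. In the 43 of the higher side the same medians were 0.67, 0.82 and 1.21. Among the 85 higher and 83 lower probe sets of opposite direction, the fed mutant had medians of 0.23 and -0.15 and the limited WT 1.52 and -1.40. In the 14 higher and 64 lower ones of the same direction the fed mutant had 1.73 and -1.72 and the limited WT 0.14 and -0.24.

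The genes named within 2-fold between these groups included enzymes of the cell wall and of defence. For some of them the 90% interval still lay wholly above or below no change. Among those higher in hni9 at low nitrogen than in fed WT, AT5G43450, a gene for an oxoglutarate-dependent oxygenase, read 463, 510.3 and 447 in the fed mutant and 508, 459 and 470.4 in limited WT. The change was -0.02 ± 0.23, with a 90% interval from -0.42 to 0.39, and the arrays were interleaved, while fed WT had 42.7 to 111. ChiC, a chitinase gene (AT4G19810), read 4557, 2761 and 4063 against 2990.2, 3814 and 3188, a change of 0.16 ± 0.16 (90% interval -0.12 to 0.44). Fed WT read 895 to 1210 for ChiC, below every array of the other groups.

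The pectin methylesterase genes AT3G10720 and AT5G04970 belonged here too, with changes of 0.38 ± 0.12 and -0.25 ± 0.16. For AT3G10720 the arrays were 3635, 3983.5 and 3233 against 3184.5, 2907 and 2309, which did not overlap, and its adjusted p of 0.066 became 0.0405 without WT replicate 1 and 0.0414 with the dimmest 40% left out. AT1G29020 and AT1G17960 had -0.36 ± 0.16 and 0.02 ± 0.27. For AT1G29020 the groups did not overlap, at 499 to 598 in the mutant and 630 to 773 in WT (90% interval -0.64 to -0.08). The aldo-keto reductase gene AT1G60750 and the glycosyltransferase gene AT5G03490 both had -0.43 ± 0.24. They left the 2-fold limit when 1 array was left out, AT1G60750 with a bound of 1.04 without WT replicate 2, and AT5G03490 with 1.03 without WT replicate 1 and 1.10 without mutant replicate 3. The arrays of AT1G60750 did not overlap either, at 126.7 to 167.9 in the mutant and 171.7 to 236.5 in WT.

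On the lower side AT4G23670, a gene of the major latex protein family, gave the closest agreement at high intensity. The fed mutant read 4554, 3940.3 and 4052 and limited WT 4892, 4786 and 3832, a change of -0.10 ± 0.11 (90% interval -0.30 to 0.10). Fed WT read 13673 to 14183 and hni9 at low nitrogen 2087 to 2648, so these levels fell in 3 steps with the fed mutant and limited WT sharing the middle one. AT2G33850 read 707, 348 and 644 against 534, 563 and 509, a change of 0.02 ± 0.21, and fed WT had 1205 to 1535.5. AT1G56220, of the dormancy and auxin associated family, had 0.20 ± 0.25. AT1G49500 had 0.39 ± 0.24, with 1535, 1982 and 1590.5 against 1199.5, 1337 and 1338, groups that did not overlap although the change was not called (adjusted p = 0.36). With replicates 1 and 2 only, AT1G49500 just left the 2-fold limit, at a bound of 1.01.

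AT3G15630, AT4G12490 and AT1G70880 left the 2-fold limit when single arrays were left out, and under other settings AT4G12490 also without the intensity trend and AT1G70880 with 1 added. AT3G15630 had 0.46 ± 0.25 and a bound of 1.03 without WT replicate 2 and of 1.05 without WT replicate 3. Its groups did not overlap, at 729 to 742 in the mutant and 424 to 600.5 in WT (90% interval 0.03 to 0.90). The lipid transfer family gene AT4G12490 had 0.36 ± 0.30 and a bound of 1.19 without mutant replicate 2 and of 1.01 without WT replicate 3. AT1G70880, a dim major latex protein family gene, had 0.21 ± 0.35 and a bound of 1.10 without mutant replicate 1 and of 1.07 without WT replicate 3. In all, 9 of the 16 named genes stayed within 2-fold under every alternative tried.

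**Figure D4:**
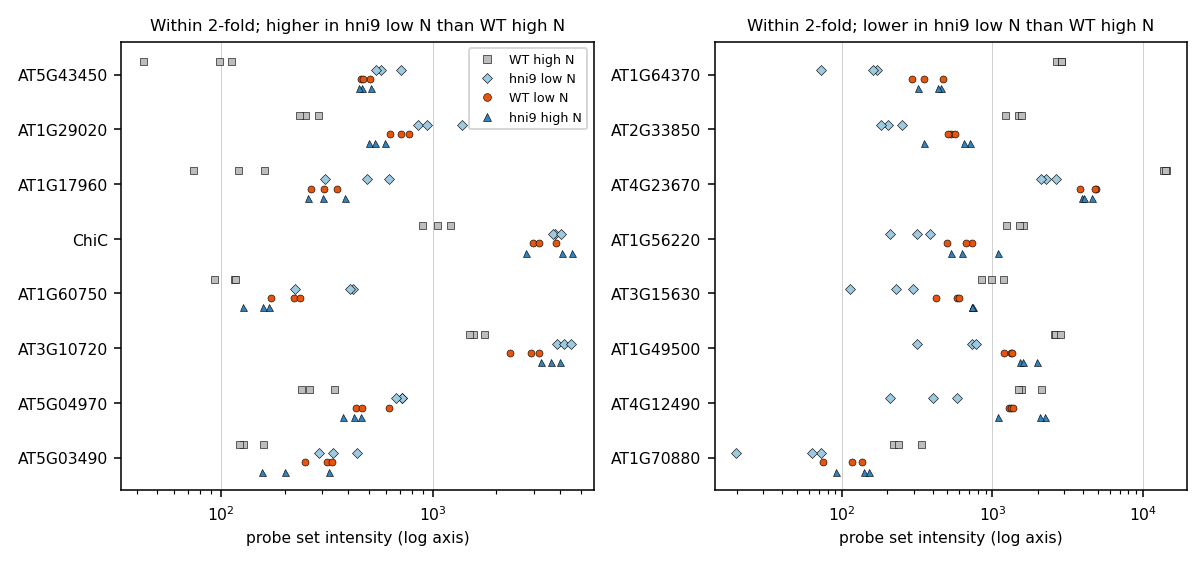
Probe set intensity (log axis) on each of the 12 arrays for the 16 named genes within 2-fold between hni9 at high and WT at low nitrogen, 8 that were higher (left) and 8 that were lower (right) in hni9 at low than in WT at high nitrogen. The dark blue triangles (hni9 at high nitrogen) lie among or beside the orange circles (WT at low nitrogen), and for AT5G43450, ChiC, AT1G64370 and AT4G23670 both lie apart from the grey squares (WT at high nitrogen). The rule for naming these genes favours both features.

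Gene groups differed in how they stood between the fed mutant and limited WT, and their counts are read against 4.44% higher, 5.55% lower and a median of 0.06 over all probe sets. Among lists of at least 3 measured genes the largest share of calls was that of the mitochondrial retrograde genes, known to rise when mitochondria are impaired. Of 7 measured, 6 were lower in the mutant and 0 higher by limma (0 higher also at an unadjusted p under 0.05), with a median of -2.32, or -1.64 without mutant replicate 2. AT2G41730 read 742, 416 and 891 against 3576, 3899 and 3881 (-2.51 ± 0.19, adjusted p = 1.8e-06). AT5G09570 read 629, 257.5 and 618 against 2318, 2501 and 2378, a change of -2.32 ± 0.27 (adjusted p = 7.5e-05). The mitochondrial small heat shock gene AT5G51440 moved less, at -0.81 ± 0.10, with 832, 935 and 847 against 1493 to 1581. The exception was NDB2, another alternative NAD(P)H dehydrogenase, at -0.07 ± 0.13 (adjusted p = 0.812). This list was known to respond to nitrogen in WT in these data when it was written, so its direction is no independent evidence.

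Genes of nitrogen handling were few under a name. In the breakdown of allantoin, AAH, the allantoate amidohydrolase, fell, with 422, 336 and 392 against 999, 1140.5 and 1260 (-1.52 ± 0.12, adjusted p = 2.3e-06), and so did ALN, the allantoinase, at -0.66 ± 0.13 (adjusted p = 0.0055). With replicates 1 and 2 only, ALN was no longer called (adjusted p = 0.096 by limma). The third measured member of that purine group, UGLYAH, had 0.19 ± 0.34. AAH and ALN had changes of -0.50 (adjusted p = 0.021) and -0.17 (adjusted p = 0.55) against fed WT, so the mutant stood below the fed wild type in AAH. Of 3 genes of the 6-phosphogluconate dehydrogenase family, which yields reductant, AT5G41670 read 4300.1, 2984 and 3847 against 7544 to 7699.5 (-1.05 ± 0.14, adjusted p = 0.00017) and AT1G64190 had -0.56 ± 0.10 (adjusted p = 0.002). For AT5G41670 fed WT read 3835 to 4056, within the range of the fed mutant.

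Of 3 nitrogen signalling regulators 1 fell, AT3G25790 (HHO1), a transcription factor gene that responds to nitrate, with 231, 139 and 393.5 against 674.5, 717 and 772 (-1.56 ± 0.25, adjusted p = 0.00082). Of 11 measured members of the nitrate and peptide transporter family 2 rose and 0 fell by limma (2 were lower at an unadjusted p under 0.05), with a median of 0.22. AT1G59740 read 380.1, 335 and 386 against 162, 161.8 and 142 (1.16 ± 0.18, adjusted p = 0.00081), while AT2G26690, at 0.92 ± 0.25 (adjusted p = 0.028), lost its call without mutant replicate 2 or 3 (0.104 and 0.0735) or WT replicate 1 or 2 (0.112 and 0.1), and without the intensity trend (0.0595). AT3G45710, described above, carries no family name in the annotation and so was not in that list. From 26 genes of nitrate uptake and nitrogen assimilation 1 could be matched, the nitrate transporter NRT2.5, at -0.31 ± 0.48 (adjusted p = 0.771) with mean intensities of 62.1 and 77.8. Of 5 glutaredoxins GRXC1 rose, with 1445, 1418 and 986 against 739 to 829 (0.69 ± 0.14, adjusted p = 0.0063).

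Sugar transport and carbon genes went both ways. Of 16 SWEET sugar transporters 5 fell and 1 rose, with a median of -0.22. SWEET17, a vacuolar fructose carrier, read 696, 672.5 and 679 against 1197, 1362 and 1516 (-0.97 ± 0.10, adjusted p = 2e-05). SWEET13 and SWEET14 had -1.36 ± 0.18 and -1.30 ± 0.24, SWEET2 read 316, 262 and 323 against 604 to 629 (adjusted p = 0.000604), and SWEET16, outside the naming rule and added after its value was seen, had -1.15. For SWEET13 and SWEET2 fed WT was at 199 to 260 and 242 to 337, ranges that the fed mutant overlapped. The 1 higher member, AtVEX1, also named after its value was seen, was dim at means of 80.0 and 14.3, and its call was lost without mutant replicate 1 or 3 or WT replicate 1 or 2. Of 8 hypoxia-induced genes 2 fell and 1 rose. AT5G66985 and AT1G33055 had -1.73 ± 0.15 and -1.77 ± 0.25, and PDC2, a pyruvate decarboxylase of fermentation, had 1.31 ± 0.23 (adjusted p = 0.0017), with 1303, 1024 and 1203 against 409, 579.9 and 419.

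Cell wall and defence families held calls in both directions. Class III peroxidases, which act on cell wall polymers and reactive oxygen, had 8 of 55 higher and 15 lower, with a median of -0.13, and 5 higher without mutant replicate 1. AT4G33420 read 856, 781 and 887 against 1750, 1739 and 2106 (-1.13 ± 0.09, adjusted p = 3.5e-06), and AT2G35380 and AT5G39580 had -1.64 ± 0.14 and -1.48 ± 0.18. Together with the rise of AT1G49570, these show that members of 1 family stood on both sides of limited WT. Chitinases had 5 of 11 higher and 2 lower, with a median of 0.43 that was 0.20 without mutant replicate 1. AT2G43620, AT2G43600 and CHI (AT2G43570), which lie near each other in the genome by their locus numbers, had 1.53 ± 0.17, 1.21 ± 0.15 and 0.93 ± 0.15, and AT1G02360 fell to 852, 493 and 921 from 1347 to 1678 (adjusted p = 0.00233). AT2G43600 read 777, 755.5 and 609.7 against 302.5, 373 and 234, and fed WT read 217 to 241. The other called chitinase genes, named after their values were seen, were AT1G56680 and AT4G01700 at 0.53 and 0.43 and AT3G47540 at -0.62, and the count of 2 lower was 1 without mutant replicate 2 or any 1 of the WT replicates.

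Berberine bridge enzyme-like oxidases had 2 of 22 higher and 4 lower. Beside AT5G44400, AT1G30760 rose by 0.73 ± 0.15 and AT4G20860 fell to 2508, 1975 and 2207 from 3602.5 to 4284 (-0.84 ± 0.10, adjusted p = 7.1e-05). AT2G34810 had -1.47 ± 0.36 (adjusted p = 0.019), lost without mutant replicate 2 (0.0562) or 3 (0.0699) or WT replicate 2 (0.0691) and with only these groups fitted (0.073), and the count of 4 lower came to 1 or 2 when any 1 of the 6 arrays was left out. Of 13 major latex protein-like genes 2 fell, AT4G14060 with -1.25 ± 0.18 and AT3G26450 with -0.95 ± 0.15, 0 rose by limma (1 at an unadjusted p under 0.05), and 8 stayed within 2-fold. AT4G14060 read 144, 116 and 192 in the mutant, 348 to 415.5 in limited WT and 808 to 1091 in fed WT, so here the fed mutant lay below the limited wild type. In the tandem lipid transfer genes of chromosome 4, AT4G12500 read 1184, 489 and 831 against 2334.5 to 2519.6 (-1.61 ± 0.27, adjusted p = 0.0015), while AT4G12490 stayed within 2-fold as given above.

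Expansins, which loosen the cell wall, had 2 of 19 higher and 1 lower. EXPA7, which is expressed in root hairs, read 1064, 1028 and 915 against 504, 639.6 and 599 (0.77 ± 0.12, adjusted p = 0.00051). EXLB1 had -1.39 ± 0.25 (adjusted p = 0.002). EXPA20, at 0.62 ± 0.18 (adjusted p = 0.042), lost its call without any 1 of the 6 arrays, at adjusted p-values from 0.0552 to 0.126, and without the intensity trend (0.0502). Of 11 RALF-like peptide genes 1 rose and 3 fell. RALFL32 and RALFL33 had -0.77 ± 0.11 and -0.49 ± 0.09, and RALFL22 and RALFL24, at -0.35 and 0.52, lost their calls in several leave-outs (adjusted p up to 0.127 and 0.113), without the intensity trend (0.108 and 0.0525) and with only these groups fitted (0.0657 and 0.0694).

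Conjugating and detoxifying enzymes held calls in both directions. Of 5 GH3 genes 3 fell and GH3.3 rose, and GH3.17 had -0.58 ± 0.12 (adjusted p = 0.0049). GH3.1 and WES1 had -1.75 ± 0.48 and -0.65 ± 0.19, calls that were lost without the intensity trend (0.0592 and 0.0885), and the count of 3 came to 1 without mutant replicate 2 or any 1 of the WT replicates. Of 11 tau class glutathione transferases 3 fell and 1 rose. GSTU22 read 2429, 1439 and 2331 against 7255 to 7754 (-1.88 ± 0.18, adjusted p = 1.3e-05), and GSTU28 had 0.80 ± 0.17 (adjusted p = 0.0063). GSTU21 and GSTU20, at -1.24 ± 0.31 and -0.95 ± 0.24, lost their calls without mutant replicate 2 (0.0513 and 0.06) or WT replicate 3 (0.0741 and 0.0633), and GSTU20 also without the intensity trend (0.0755). Without either array 1 tau class gene was called lower. The call of GSTU21 was also lost without mutant replicate 1 (0.0722) or WT replicate 2 (0.0727), and that of GSTU20 without WT replicate 1 (0.069). With replicates 1 and 2 only, both calls were lost (0.117 and 0.071).

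Of 51 UDP-glycosyltransferases 4 fell and 1 rose, with a median of 0.07 and a share of falls near that of all probe sets. UGT71C1 read 489, 564 and 516.5 against 1281, 1382 and 1209 (-1.28 ± 0.10, adjusted p = 1.6e-06). UGT72E2 and UGT72E1, which glucosylate monolignols, had -0.88 ± 0.13 and -0.63 ± 0.12, and UGT88A1 had 0.87 ± 0.16. Of 8 small heat shock protein genes AT2G29500 rose and AT5G51440 fell, with a median of 0.13.

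**Figure D5:**
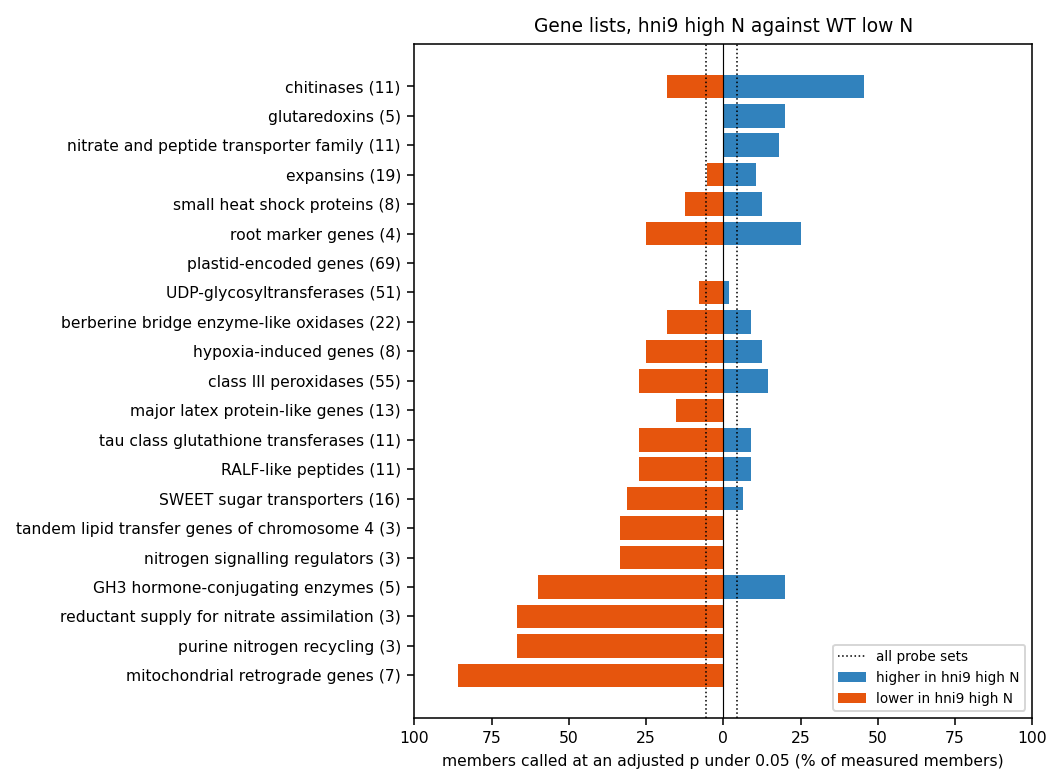
Percent of the measured members of each gene list that were called higher (blue, to the right) or lower (orange, to the left) in hni9 at high than in WT at low nitrogen, with the number measured in brackets. Dotted lines mark the 4.44% higher and 5.55% lower of all probe sets, the mitochondrial retrograde genes reach furthest to the lower side with 6 of 7, and the 69 plastid-encoded genes have no bar.

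Levels that touch tissue makeup were measured beside these groups. Of the 4 root markers measured, EXPA7 rose and the peroxidase gene AT5G17820 fell by 0.87 on the log2 scale. The summed intensity of the 4 was 23771 to 28083 in the mutant and 24979 to 27652 in WT. Most of that sum came from PYK10, so it says little of the others. Of 18 green tissue genes 2 could be matched, RCA, the Rubisco activase, and LHCB4.1, a light-harvesting protein, with changes of -0.88 (adjusted p = 0.319) and -1.09 (adjusted p = 0.306). Their summed intensity was 308 to 826 in the mutant and 846 to 1029 in WT, and the part of green tissue in the results was not tested. The 69 plastid-encoded genes had 0 called by limma (4 higher and 3 lower at an unadjusted p under 0.05), a median change of 0.06 and 63 within 2-fold. Leaving out single arrays or changing the setting gave up to 2 called in either direction. Their lowest p belonged to cemA and accD, at -0.54 ± 0.17 (adjusted p = 0.061) and -0.36 ± 0.12 (adjusted p = 0.081), both of which passed without mutant replicate 2 (0.0036 and 0.00417) and after each array was centred on its median (0.0405 and 0.0457), and cemA also when the dimmest 40% were dropped (0.0348).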

How the data were processed

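Root RNA was measured on 12 Affymetrix arrays, and 6 of them, hni9 at high nitrogen and WT at low nitrogen, were compared. The authors deposited 1 table of probe set intensities on a linear scale. That the authors had scaled each array to a mean of 500 without the upper and lower 2% of values was read from the deposited values, and the summarising software is not named by the labels. Of 22810 probe sets 64 controls were left out. The scaling was kept, and 16 was added to each intensity before taking log2. The model had 1 mean for each of the 4 groups, so that all 12 arrays share an estimate of the spread (limma 3.58.1, R 4.3.3, lmFit, and eBayes with an intensity trend), and the threshold was a false discovery rate of 0.05 by Benjamini-Hochberg. The method was tested on simulated data. Changes of dim genes are compressed by the 16 added, and the number of arrays limits the precision.

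Probe sets chosen on hni9 at low against WT at high nitrogen (called, at least 2-fold) were placed in classes by the comparison here: called in the same or the opposite direction, within 2-fold (not called, 90% interval inside 2-fold), or undecided. The annotation named 1 gene for 13513 probe sets, several for 503 and did not list 8730, and the brightest probe set stood for a gene. Symbols came from the RefSeq gene table (TAIR10.1), which matched 13436 probe sets. Named were the 14 genes of largest change in each direction (called, all arrays of one group above the other, mean of the higher group above the median of all probe sets), 8 in each direction of the class within 2-fold by the size of the other comparison, 10 in each direction by the nitrogen response of WT, and from each list of at least 3 measured genes up to 4 called members of lowest p or, with none called, up to 2. Of 28 lists written at the start 7 were dropped or replaced because names matched few or wrong genes, and 7 were added by locus or chromosome. NRT2.5, which its name placed with the nitrate and peptide transporters, was counted with nitrate uptake only. Lists of reactive oxygen scavenging enzymes and transcript elongation factors matched 0 genes. The comparison, the members and the lists were chosen with earlier results of these data known. Alternatives were the number added, normalization, dim probe sets left out, the intensity trend, the arrays in the fit, the replicate number, and each array left out.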

Additional observations from a re-analysis of the deposited data

Results flagged for a closer look

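For 21 of 107 named genes the difference between hni9 and WT depended on the nitrogen supply by limma's test of the interaction, which takes the genotype difference under low supply from the one under high supply, with adjusted p-values over all probe sets. The share of all probe sets that pass was not counted. Since the 107 were named by size of change or by smallest p, the count is not read as high or low. Of the 21, 8 had been named for their nitrogen response in WT, which is part of the interaction, so their values are a description. Among the other 13, the peroxidase gene AT1G49570 had the lowest p, with an interaction of 2.75 ± 0.21 (adjusted p = 3.41e-05) and differences of 1.96 at high and -0.79 at low nitrogen. The oxygenase gene AT5G43450 and the chitinase gene ChiC, both at a like level in the fed mutant and limited WT, had 2.04 ± 0.32 (adjusted p = 0.00947) and 1.61 ± 0.23 (adjusted p = 0.00491). The lipid transfer family gene AT4G12500 had 2.66 ± 0.39 (adjusted p = 0.00566), with differences of -0.07 at high and -2.74 at low nitrogen. The hypoxia-induced gene AT1G33055 had 2.34 ± 0.35 (adjusted p = 0.00669), and the mitochondrial heat shock gene AT5G51440 had 1.03 ± 0.14 (adjusted p = 0.00491). AT5G51440 belongs to the mitochondrial retrograde list, which was known to respond to nitrogen in WT when written, so its value is a description too. The other lists were also chosen with earlier results of these data known. Interactions of genes named from them, here and below, are therefore likewise a description.

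The interaction was negative for AT1G78990 (-2.79 ± 0.43, adjusted p = 0.00693) and for AT2G34810 (-2.42 ± 0.52, adjusted p = 0.0476). The major latex protein family genes AT4G14060, AT3G26450 and AT4G23670 had -1.55, -1.11 and -0.80 (adjusted p = 0.0113, 0.0313 and 0.0353), and in all 3 the mutant mean was below WT at both supplies. UGT71C1 and the peroxidase gene AT4G33420 had -0.79 and -0.73 (adjusted p = 0.0161 and 0.0217). Of the 8 genes named for the WT response, AT5G09570, AT2G21640, AT2G41730, AT2G04050 and AT5G40590, raised at low nitrogen in WT, had interactions of 2.99, 2.82, 2.51, 2.51 and 1.51. Those lowered in WT, AT2G23910, AT2G16005 and AT1G19960, had -2.35, -2.23 and -1.59.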

How the results depend on the processing

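No named gene outside the class within 2-fold turned its sign under any alternative run. The split of the calls of the other pair of groups turned from 911 higher and 1062 lower to 1447 and 818 with each array centred on its median. The nearly even 85 and 83 of the opposite class turned under several alternatives, to 73 and 90 with the dimmest 40% left out and to 84 and 90 with 1 added. Of 86 named genes that were called, 66 were called under every alternative, and of 16 named within 2-fold 9 stayed so. With replicates 1 and 2 only, limma no longer called ALN (adjusted p = 0.096), PDC2 (0.0536), RALFL33 (0.073) or UGT72E1 (0.0873). The calls of UGT88A1 (0.0523), AT1G30760 (0.141) and AT5G17820 (0.0531) were lost there too. The 2273 calls between hni9 at high and WT at low nitrogen became 1063 with replicates 1 and 2 only and ranged from 1490 (without WT replicate 2 at low nitrogen) to 1846 when single arrays were left out. The 722 of at least 2-fold became 464 with 64 added in place of 16. The 1973 calls of the other pair of groups became 1219 without the intensity trend and 754 with replicates 1 and 2 only, and 1246 to 1760 with single arrays left out. With replicates 1 and 2 only, 43 of the chosen probe sets went in the same and 99 in the opposite direction. The 154 undecided became 32 with 64 added and 47 with the dimmest 40% left out, and 98 to 216 with single arrays left out, lowest without hni9 replicate 3 or 2 at low nitrogen. The cause of these shifts was not tested. The main model had no term for the replicate number. Deviations of arrays with the same number correlated at 0.0216 to 0.15, and 11 of 12 arrays correlated best with their own number. Arrays of number 3 stood apart, at 0.0989 to 0.15 with each other and -0.119 to -0.0335 with numbers 1 or 2. Deviations from a group mean cancel within the group, so the negative values follow from the positive ones and are no separate evidence. Between numbers 1 and 2 the range was -0.00268 to 0.0512. With the replicate number as a block AT2G16005, AT2G23910 and AT3G10720 were called (adjusted p = 0.0359, 0.025 and 0.0444). In that fit 2629 probe sets were called, and with number 3 against 1 and 2 as a term, added after the data were seen, 2567. Dim probe sets, with intensities near the 16 added, limit the sizes given for genes such as AT1G78990 and NDB4.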
